A study of Mus musculus with 8 samples.

Results

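The genes examined were the ErbB receptors and their ligands, 10 genes chosen by name out of 51789 in a count table of mouse mammary gland RNA. They comprised 4 receptors (Egfr, Erbb2, Erbb3 and Erbb4) and 6 ligands (Egf, Tgfa, Hbegf, Btc, Ereg and Nrg1). Female C57BL/6 mice had received a single injection into the abdominal mammary gland, and RNA of the whole gland was sequenced 6 weeks later. sEVNORM and sEVHYP are small extracellular vesicles shed by cultured AT3 cells, a mammary tumor line of the mouse that metastasizes, in normoxia and in hypoxia. sEVCTRL was prepared from medium that had held no cells, and is labelled control. The table holds 3 sEVCTRL, 3 sEVNORM and 2 sEVHYP libraries, and the age and estrous stage of the animals are not given in the sources used here. All vesicles came from 1 cell line, so each group stands for that line only.

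ErbB receptors are cell surface tyrosine kinases that pair with each other when a ligand binds. Their ligands are made as membrane-anchored precursors and are freed by metalloproteases such as Adam17. Erbb2 has no known ligand and acts as the partner of the others, whereas Erbb3 binds neuregulins but has a weak kinase and relays signals through its partner. In the mammary gland, amphiregulin acting on stromal Egfr is known for driving ductal growth, and Erbb4 is known for its part in alveolar differentiation and lactation.

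Total counts per library were 18194996 to 24622569. Values below are CPM, the number of reads of a gene relative to all reads of its library, on a fixed scale and with library sizes corrected by the trimmed mean of M values (TMM), and where no read was counted, up to 3 reads remain possible from counting error alone. A gene is called when its unadjusted P in edgeR's two-sided quasi-likelihood test is under 0.05, the threshold the study applied. The study describes separate animals, but the labels do not tie libraries to animals, and P values measure only the spread between these libraries. In bulk RNA, fewer cells of a type and less RNA per cell cannot be told apart. The luminal epithelium, basal epithelium, adipocyte and fibroblast markers that define the gland were all detected in every library. Skeletal muscle markers summed to between 11.2 CPM (sEVNORM 2) and 13441 CPM (sEVHYP 2). Keratinocyte markers summed to 84.9 CPM in sEVNORM 3 against 11.1 to 15.5 CPM elsewhere. B and T cell markers summed to between 986 CPM (sEVHYP 2) and 2722 CPM (sEVNORM 2). The part of these contents in the values below was not tested.

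Egfr (ENSMUSG00000020122, GRCm38 chr11:16752203-16918158, plus strand), which binds Egf, Tgfa, Areg, Hbegf, Btc and Ereg, made up most of the receptor mRNA. It measured 118, 185 and 106 CPM in the sEVCTRL libraries, 197, 135 and 235 CPM in the sEVNORM libraries, and 117 and 185 CPM in the sEVHYP libraries. The highest library was sEVNORM 3, and the 3 groups overlapped. Group means were 136 ± 42.7 CPM (SD, n = 3), 189 ± 50.3 CPM (SD, n = 3) and 151 ± 47.7 CPM (SD, n = 2) in the same order.

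Erbb2 (ENSMUSG00000062312, chr11:98412470-98437716, plus strand), the receptor without a ligand of its own, measured 3.66, 6.20 and 5.36 CPM with sEVCTRL, 7.16, 3.68 and 6.48 CPM with sEVNORM, and 6.001 and 5.94 CPM with sEVHYP, from 72 to 178 counts a library. The lowest values were those of sEVCTRL 1 and sEVNORM 2, and both sEVHYP libraries lay inside the range of the other groups. Exons of Mien1, a gene on the opposite strand with 6600 counts in all against 946 for Erbb2, overlap those of Erbb2 over 9 bases only.

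Erbb3 (ENSMUSG00000018166, chr10:128567523-128589652, minus strand), a receptor for neuregulins, measured 30.4, 46.8 and 36.5 CPM with sEVCTRL, 47.4, 25.9 and 49.95 CPM with sEVNORM, and 37.5 and 43.4 CPM with sEVHYP. Again the lowest libraries were sEVNORM 2 and sEVCTRL 1. Group means of Erbb3 were 37.9 ± 8.30 CPM (SD, n = 3), 41.1 ± 13.2 CPM (SD, n = 3) and 40.5 ± 4.17 CPM (SD, n = 2).

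Erbb4 (ENSMUSG00000062209, chr1:68032186-69108059, minus strand), the neuregulin receptor with a fully active kinase, was the most variable receptor. Its values were 1.37, 10.4 and 3.78 CPM with sEVCTRL, 4.22, 4.83 and 5.35 CPM with sEVNORM, and 1.05 and 5.89 CPM with sEVHYP. These rest on 23 to 229 counts a library, and both the sEVCTRL and the sEVHYP libraries spread over more than the whole sEVNORM range. The coefficient of variation over the 8 libraries was 63.5% for Erbb4, against 29.3% for Egfr, 22.9% for Erbb2 and 21.7% for Erbb3.

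Among the ligands, Btc (betacellulin, ENSMUSG00000082361, chr5:91357261-91402994, minus strand), which binds Egfr and Erbb4, measured 9.45, 26.4 and 11.7 CPM with sEVCTRL, 14.1, 13.3 and 17.1 CPM with sEVNORM, and 12.2 and 15.4 CPM with sEVHYP. The single high value was that of sEVCTRL 2, the library that was also highest for Erbb4 and Egf. Tgfa (transforming growth factor alpha, ENSMUSG00000029999, chr6:86195223-86275719, plus strand) was the steadiest gene, with a coefficient of variation of 18.6%. It measured 11.7, 14.4 and 14.1 CPM with sEVCTRL, 8.29, 15.7 and 12.5 CPM with sEVNORM, and 11.6 and 11.1 CPM with sEVHYP. Both sEVHYP libraries lay just under the lowest sEVCTRL library and inside the sEVNORM range.

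Hbegf (heparin-binding EGF-like growth factor, ENSMUSG00000024486, chr18:36504927-36515805, minus strand), a ligand of Egfr and Erbb4, measured 1.73, 2.42 and 2.63 CPM with sEVCTRL, 2.74, 2.26 and 2.55 CPM with sEVNORM, and 3.12 and 3.53 CPM with sEVHYP. It was the sole gene of the 10 whose sEVHYP libraries were above all 6 others, at 66 and 68 counts against 34 to 68, a position that 3.44% of all tested genes shared. Egf (ENSMUSG00000028017, chr3:129677565-129755316, minus strand), the ligand that gives the family its name, measured 1.37, 6.25 and 2.08 CPM with sEVCTRL, 3.34, 2.13 and 2.08 CPM with sEVNORM, and 2.29 and 4.55 CPM with sEVHYP, with all groups overlapping.

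Nrg1 (neuregulin 1, ENSMUSG00000062991, chr8:31814551-32884029, minus strand), a ligand of Erbb3 and Erbb4, was near the limit of detection. It measured 0.609, 1.00 and 1.26 CPM with sEVCTRL, 0.684, 1.46 and 1.32 CPM with sEVNORM, and 0.870 and 0.321 CPM with sEVHYP, from 6 to 33 counts a library. An RNA on the opposite strand shares 482 exon bases with Nrg1, and held 19 counts in all against 160 for Nrg1. Ereg (epiregulin, ENSMUSG00000029377, chr5:91074622-91093646, plus strand), a ligand of Egfr and Erbb4, had 0, 7 and 1 counts with sEVCTRL, 0, 2 and 4 with sEVNORM, and 1 and 0 with sEVHYP. It was below the filter on low counts, so 9 of the 10 genes were tested. The range of each gene by library is shown in the plot of CPM by group.

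**Figure D1:**
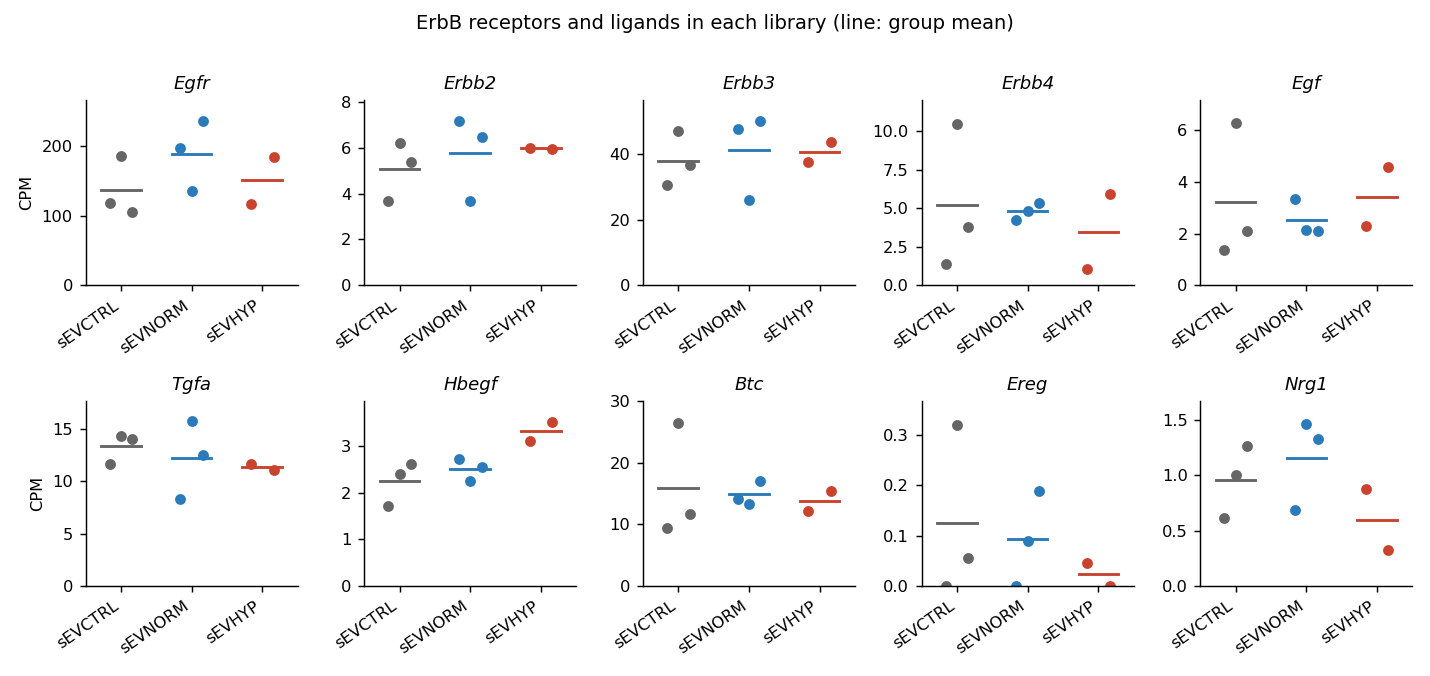
CPM (vertical axis, from 0, scaled for each gene) of the 10 ErbB receptor and ligand genes in the 3 sEVCTRL, 3 sEVNORM and 2 sEVHYP libraries. Points are libraries and horizontal lines are group means. Hbegf is the gene whose sEVHYP libraries, at 3.12 and 3.53 CPM, lie above all others.

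Divided by exon length, so that genes can be compared, levels spanned from Egfr to Ereg. The median over the 8 libraries was 14.1 CPM per kilobase for Egfr and 6.73 for Erbb3. On the same scale it was 3.03 for Btc, 1.87 for Tgfa, 1.15 for Erbb2, 0.536 for Hbegf, 0.366 for Erbb4, 0.196 for Egf, 0.0905 for Nrg1 and 0.0122 for Ereg. Of neighbours in this order, the ranges of Egfr (9.32 to 20.8) and Erbb3 (4.31 to 8.30) alone did not overlap. Erbb4 and Egf change places when the longest transcript is used as the length, with medians of 0.376 and 0.464 CPM per kilobase.

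Per length, Egfr made up 55.7% to 68.9% of the receptor mRNA in a library, Erbb3 24.8% to 36.3%, Erbb2 4.05% to 6.46% and Erbb4 0.478% to 3.23%. The level of Egfr was 8.99 to 16.9 times that of Erbb2 and 1.54 to 2.77 times that of Erbb3. Erbb3 was 5.41 to 7.19 times as high as Erbb2, the narrowest of these ratios. This order of the receptors held in each of the 8 libraries.

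**Figure D2:**
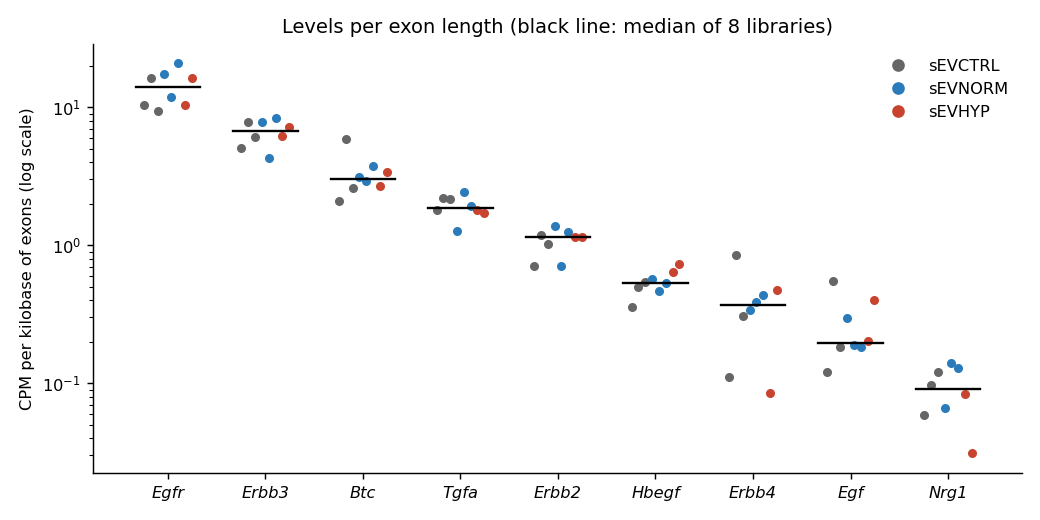
CPM per kilobase of merged exons (vertical log axis) for 9 of the 10 genes, ordered by their median. Points are the 8 libraries, coloured by group, and black lines are medians; Ereg, with 0 counts in some libraries, is left out. Egfr lies between 9.32 and 20.8, above all values of Erbb3.

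RefSeq promoters of the assembly GRCm38.p6 were at hand for 6 of the 10 genes (Egfr, Erbb2, Erbb4, Egf, Tgfa and Btc), and not for Erbb3, Hbegf, Ereg and Nrg1. The 250 bases before the start are shown for Egfr, the most abundant receptor, for Erbb2, and for Tgfa, the steadiest ligand, because these differ in which common promoter letters they hold. Capitals mark the GC box GGGCGG on either strand (CCGCCC on the other) and the AP-2 motif GCCNNNGGC, and the sequences run 5′ to 3′ on the strand of the gene. They lie at chr11:16751953-16752202 (plus strand), chr11:98412234-98412483 (plus strand) and chr6:86194972-86195221 (plus strand).
Egfr: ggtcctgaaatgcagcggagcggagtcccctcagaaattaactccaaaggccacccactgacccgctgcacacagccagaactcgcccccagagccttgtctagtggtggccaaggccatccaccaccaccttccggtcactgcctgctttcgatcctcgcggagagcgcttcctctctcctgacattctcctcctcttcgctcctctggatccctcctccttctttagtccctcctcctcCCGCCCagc
Erbb2: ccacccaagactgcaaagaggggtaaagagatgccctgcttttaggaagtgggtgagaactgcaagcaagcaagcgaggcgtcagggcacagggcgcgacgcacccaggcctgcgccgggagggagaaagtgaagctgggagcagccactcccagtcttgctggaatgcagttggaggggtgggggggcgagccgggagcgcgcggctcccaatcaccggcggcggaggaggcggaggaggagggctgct
Tgfa: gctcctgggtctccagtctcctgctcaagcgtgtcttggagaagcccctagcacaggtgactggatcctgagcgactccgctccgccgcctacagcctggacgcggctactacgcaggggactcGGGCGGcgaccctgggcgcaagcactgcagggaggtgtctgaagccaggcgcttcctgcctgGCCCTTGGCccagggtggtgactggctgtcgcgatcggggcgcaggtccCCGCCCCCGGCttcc

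The Egfr promoter held 1 GC box, 9 bases before the start. Tgfa held 2 GC boxes, 126 and 15 bases before the start, and 2 AP-2 motifs, 64 and 13 bases before it, the last of each overlapping. No match was found for Erbb2, whose window is G and C at 66.0% of bases, against 60.8% for Egfr and 69.2% for Tgfa. Of 32851 RefSeq promoter windows of this length, 32.7% held a GC box and 13.7% the AP-2 motif, and the median window was 52.4% G and C. TATAAA, searched on both strands, was in none of the windows of the 6 genes and in 12.4% of all. A match of letters is a description and not a bound site.

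The first comparison, sEVHYP against sEVCTRL, asks what vesicles of hypoxic cells left in the gland at this time. None of the 9 tested genes was called, where 2.45% of all 17858 tested genes were. DESeq2, on all libraries or on these groups alone, also called 0 of the 9, and the edgeR adjusted P (Benjamini-Hochberg over all genes) of each was 1.00. The edgeR fold change was 1.11 for Egfr (95% confidence interval 0.674 to 1.82, as in all parentheses that follow a fold change), 1.18 for Erbb2 (0.685 to 2.02), 1.07 for Erbb3 (0.677 to 1.68) and 0.662 for Erbb4 (0.182 to 2.41). The interval was narrowest for Erbb3 and widest for Erbb4.

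Of the ligands in this comparison, Hbegf had the largest positive value, with a log2 fold change of 0.56 ± 0.31 (SE) and a fold change of 1.47 (0.906 to 2.39). Tgfa had a fold change of 0.850 (0.556 to 1.302). In these 2 genes the groups did not overlap, Hbegf higher and Tgfa lower with sEVHYP, a share of the 9 that stands beside 12.8% of all tested genes. The fold change was 1.05 for Egf (0.400 to 2.76), 0.869 for Btc (0.466 to 1.62) and 0.631 for Nrg1 (0.240 to 1.66). Of the 9 genes, 5 had a value above and 4 below 0, with a median log2 fold change of 0.072, and the median of all tested genes was -0.015.

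The second comparison, sEVHYP against sEVNORM, sets vesicles of hypoxic donor cells against those of normoxic donor cells. These libraries also differed in muscle content, since 10 of the 12 skeletal muscle markers were higher in sEVHYP with groups that did not overlap. The part of muscle content in the values was not tested. None of the 9 genes was called by edgeR or by DESeq2, beside 3.95% of all tested genes with edgeR. Fold changes of the receptors were 0.799 for Egfr (0.484 to 1.32), 1.03 for Erbb2 (0.602 to 1.77), 0.984 for Erbb3 (0.624 to 1.55) and 0.720 for Erbb4 (0.198 to 2.61). Hbegf, at 1.32 (0.814 to 2.14), was the only gene of the 9 whose groups did not overlap, which held for 22.8% of all tested genes. Nrg1 had the lowest value, 0.523 (0.200 to 1.37), on 6 and 19 counts in the sEVHYP libraries. Egf was at 1.35 (0.517 to 3.54), Tgfa at 0.933 (0.611 to 1.42) and Btc at 0.930 (0.499 to 1.73). The median log2 fold change of the 9 genes was -0.10, and that of all tested genes -0.020.

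The third comparison, sEVNORM against sEVCTRL, asks the same of vesicles of normoxic cells. None of the 9 genes was called by edgeR or DESeq2, beside 1.62% of all tested genes with edgeR. No member had groups without overlap, where 4.86% of all tested genes did. Egfr had the largest value, with a log2 fold change of 0.47 ± 0.28 (SE) and a fold change of 1.39 (0.888 to 2.17). Without sEVCTRL 2, the sEVCTRL library with the highest Egfr, its log2 fold change was 0.76, and Btc was also called then, at 0.49. Without sEVNORM 2 Egfr was called as well, at 0.66, so its call rests on which library is kept. Erbb2 had a fold change of 1.14 (0.700 to 1.85), Erbb3 of 1.08 (0.721 to 1.63) and Erbb4 of 0.921 (0.298 to 2.84). Ligand values lay between 0.777 for Egf (0.326 to 1.85) and 1.21 for Nrg1 (0.529 to 2.75). The 3 comparisons share libraries pairwise, so their values are not independent of each other. The plot of fold changes shows the intervals of the 9 genes side by side.

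**Figure D3:**
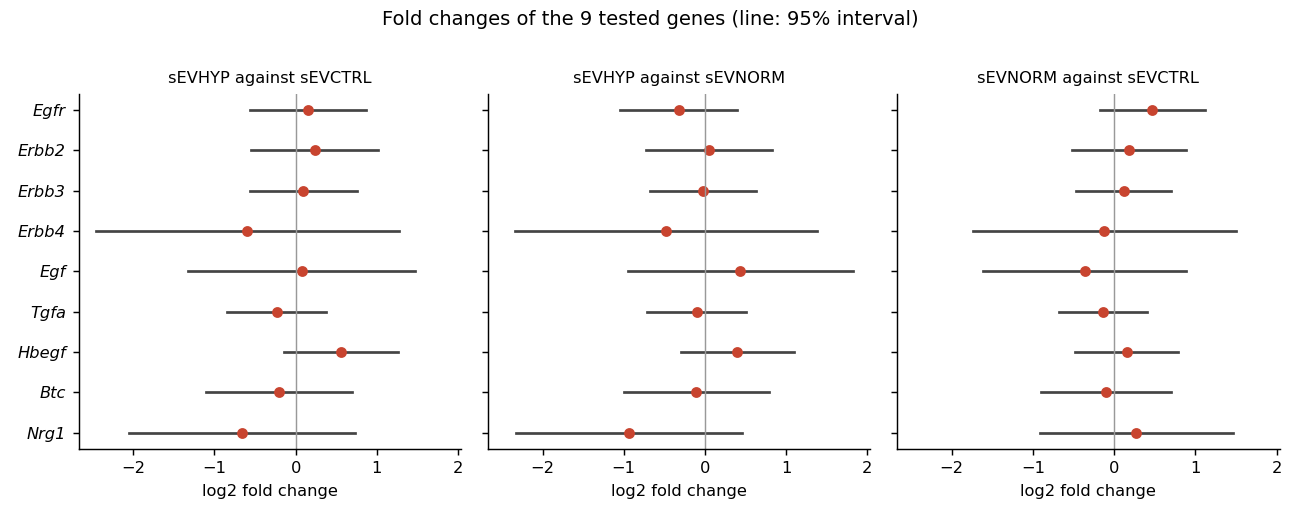
Log2 fold change (horizontal axis) of the 9 tested ErbB receptor and ligand genes in the 3 comparisons. Points are edgeR estimates and lines their 95% confidence intervals. Each line crosses 0, and those of Erbb4, Egf and Nrg1 are the widest, for example -2.46 to 1.27 for Erbb4 in sEVHYP against sEVCTRL.

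Erbb2 was higher in libraries with a higher luminal epithelium score. Relations were computed over the 8 libraries for each of the 10 genes with 6 marker scores (mean log2 CPM of a marker list) and for the genes with each other, 105 in all, with exact permutation over the 40320 pairings. Of the 6 scores, Erbb2 had its highest uncentred r with luminal epithelium, with Pearson's r = 0.919 (exact permutation P = 0.000223, adjusted P = 0.0234) and Spearman's rho = 0.929 (exact permutation adjusted P = 0.0781). Without the libraries farthest from the median score, sEVCTRL 1 and sEVNORM 1, r was 0.930 (n = 6, exact permutation adjusted P = 0.204). Erbb2 had r = 0.916 with the basal epithelium score (exact permutation adjusted P = 0.126) and 0.807 with the muscle score (exact permutation adjusted P = 0.130). Without sEVCTRL 1 and sEVNORM 2 these were 0.415 and 0.0946 (n = 6). With values centred within groups, r was 0.943 for luminal epithelium, 0.925 for basal epithelium and 0.961 for muscle.

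Erbb2 and Erbb3 also varied together over the libraries, with r = 0.934 (exact permutation P = 0.000893, adjusted P = 0.0469) and rho = 0.929 (exact permutation adjusted P = 0.0781). Without sEVCTRL 1 and sEVNORM 2, which were lowest in both, r was 0.779 (n = 6, exact permutation P = 0.0542), so the relation rests in part on these libraries. These were the 2 relations with an adjusted P under 0.05, out of 20 with an unadjusted P under 0.05, and none passed the adjustment without the farthest libraries. Luminal markers summed to 1214, 2323 and 1682 CPM with sEVCTRL, 2189, 1808 and 2143 CPM with sEVNORM, and 1920 and 2470 CPM with sEVHYP. B and T cell markers were highest in sEVCTRL 1 (2276 CPM) and sEVNORM 2 (2722 CPM), against 986 to 1868 CPM elsewhere. No B and T cell score was among the 6, and the part of this content in the Erbb2 and Erbb3 values was not tested.

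Other receptor and ligand relations did not pass the adjustment. Erbb3 had r = 0.804 with the luminal score (exact permutation adjusted P = 0.126, rho = 0.929), and r = 0.969 without sEVCTRL 1 and sEVNORM 1. Its highest r was that with fibroblasts, 0.862 (rho = 0.857, exact permutation adjusted P = 0.126), which was 0.778 without sEVNORM 2 and sEVNORM 3. Erbb3 had r = 0.840 with basal epithelium, 0.824 with the nerve and Schwann cell score and 0.830 with the muscle score (exact permutation adjusted P = 0.126 for each), and the last was 0.144 without sEVCTRL 1 and sEVNORM 2. With values centred within groups, Erbb3 had r = 0.983 with muscle, 0.947 with nerve and Schwann cells, 0.889 with basal epithelium, 0.882 with fibroblasts and 0.850 with luminal epithelium. Egfr had its highest r with fibroblasts, 0.778 (rho = 0.595, exact permutation adjusted P = 0.225), and 0.949 with values centred within groups. Of the 6 scores, its highest rho was that with luminal epithelium, 0.762 (r = 0.659, exact permutation adjusted P = 0.271), where the centred r was 0.595. Erbb4 and Btc, a receptor and a ligand that binds it, had r = 0.813 (rho = 0.881, exact permutation adjusted P = 0.126) and r = 0.963 without sEVCTRL 1 and sEVHYP 1. All such values share the library's depth and cell makeup, and the labels name no batch.

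**Figure D4:**
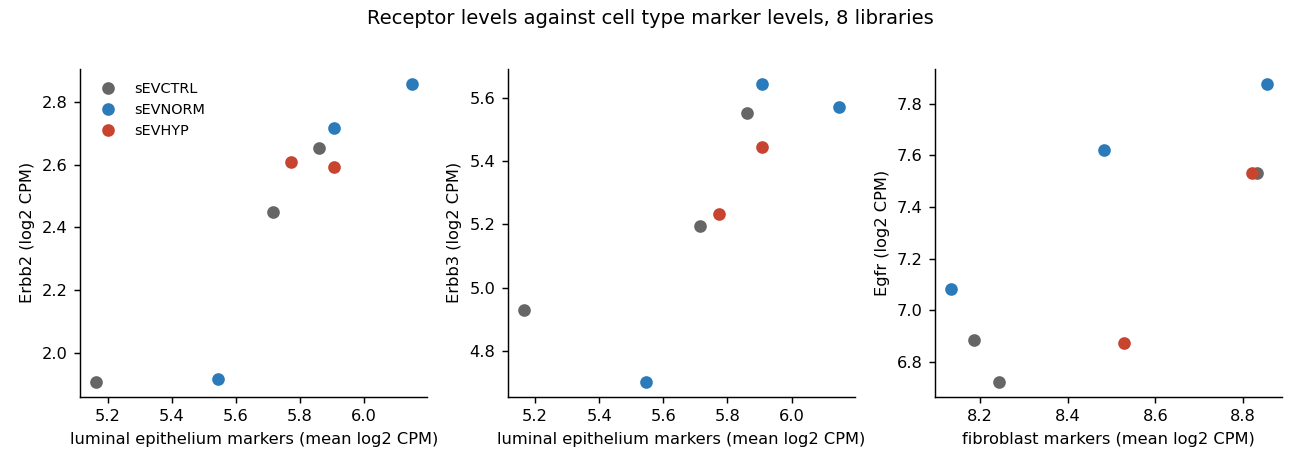
Log2 CPM of Erbb2 and Erbb3 against the luminal epithelium score, and of Egfr against the fibroblast score (mean log2 CPM of the markers). Each point is a library, coloured by group. Pearson's r is 0.919, 0.804 and 0.778 from left to right, and sEVCTRL 1 and sEVNORM 2 are the lowest points for Erbb2 and Erbb3.

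With the luminal score as a covariate, the log2 fold changes of sEVHYP against sEVCTRL turned negative for 4 genes, none of them called. These were Egfr (-0.074 ± 0.30, SE), Erbb2 (-0.057 ± 0.27), Erbb3 (-0.17 ± 0.22) and Egf (-0.32 ± 0.48). In sEVNORM against sEVCTRL they turned negative for Erbb2 (-0.19 ± 0.25, SE), Erbb3 (-0.22 ± 0.21) and Hbegf (-0.021 ± 0.30). The score was computed from the same libraries, and whether a change in cell makeup lies behind the receptor values was not tested.

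The genes most like each receptor over the 8 libraries, by Pearson's r of log2 CPM among all tested genes, were Ift88 (0.984), Pdgfra (0.981) and Shroom1 (0.978) for Egfr, and included Meiob (0.965) and Ckmt1 (0.965) for Erbb2. For Erbb3 they were Sned1 (0.976), Garem1 (0.973) and Cep170b (0.973), and for Erbb4 Hgf (0.962), Nudt13 (0.960) and Gm20449 (0.956). For the ligands, Rbms3 (0.987), Wdr60 (0.972) and Arhgap42 (0.968) were nearest to Btc, Vwa7 (0.973), Ldhd (0.970) and Dagla (0.960) to Hbegf, and Col28a1 (0.949), D17H6S53E (0.940) and Col6a5 (0.923) to Tgfa. Gm11843 (0.967), 1700025G04Rik (0.964) and Epha7 (0.963) were nearest to Egf, and Wif1 (0.931), Abr (0.926) and Pdcd6ip (0.925) to Nrg1. These are the highest of 17858 values over few libraries, and are given as a description.

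The family has 5 further ligands, and among these amphiregulin was the most abundant per length of any ligand. Areg measured 24.3, 79.3 and 27.8 CPM with sEVCTRL, 10.4, 79.0 and 68.8 CPM with sEVNORM, and 95.5 and 126 CPM with sEVHYP. Both sEVHYP libraries were above the 6 others, as in 3.44% of all tested genes. The estrous stage of the animals is not given, and its part in the Areg values was not tested. The log2 fold change of Areg was 1.34 ± 0.73 (SE) against sEVCTRL, with a fold change of 2.52 (0.800 to 7.96), and 1.07 ± 0.73 (SE) against sEVNORM. The call depended on the model and on the libraries kept, since Areg was called against sEVCTRL by DESeq2 on these groups alone, at 1.33 ± 0.48, and by edgeR on these groups alone, at 1.34 ± 0.48 (SE). It was also called without sEVCTRL 2, at 2.09, without sEVNORM 1, at 1.34, and without a filter on low counts, at 1.34. The value against sEVCTRL was 1.05 and not called without sEVCTRL 1, and that against sEVNORM was 0.58 and not called without sEVNORM 1.

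Nrg4, a neuregulin that binds Erbb4 and is made by adipocytes, measured 60.6, 60.7 and 83.7 CPM with sEVCTRL, 39.4, 61.9 and 65.6 CPM with sEVNORM, and 67.5 and 108 CPM with sEVHYP. It rose in sEVHYP against sEVNORM, by 0.66 ± 0.28 on the log2 scale (SE; the adjusted P by edgeR was 1.00). Without sEVHYP 2 this was 0.27 and without sEVNORM 1 0.46, neither of them called, and the call was also lost with edgeR on these groups alone. White adipocyte markers summed to 4958 to 7769 CPM with sEVNORM and to 4855 and 8380 CPM with sEVHYP, and their part in the Nrg4 value was not tested.

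Per length, the median was 60.8 CPM per kilobase for Areg and 10.5 for Nrg4, above all ligands of the 10 genes. Epgn had 9 and 18 counts with sEVHYP against 1 to 12 in the other libraries, with a log2 fold change of 1.87 ± 0.93 against sEVCTRL (SE). Nrg2 had 11 to 14 counts with sEVNORM against 3 to 9 elsewhere, with log2 fold changes of 0.97 against sEVCTRL and -1.16 for sEVHYP against sEVNORM. Neither Epgn nor Nrg2 was called in these comparisons with all libraries, and Epgn was called against sEVCTRL without sEVNORM 1, at 1.87. Nrg3 had at most 1 count in a library and was not tested.

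Around the receptors, 95 genes that release the ligands, relay the signal, hold it back or respond to it, further ligands included, were listed, and 92 were tested (Areg stands in both the ligand and the target list). In sEVHYP against sEVCTRL 3 of the 92 (3.26%) rose and 0 fell, in sEVHYP against sEVNORM 2 (2.17%) rose and 0 fell, and in sEVNORM against sEVCTRL 4 (4.35%) rose and 0 fell. The background shares of genes called higher were 1.39%, 2.25% and 0.89% in that order. No listed gene had an adjusted P (edgeR) under 0.05, and those of the genes that passed were all 1.00.

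The 12 genes of ligand shedding include Timp3, an inhibitor of such proteases. Of the 12, Adam12, a metalloprotease that can free Hbegf, was the 1 that passed. It measured 53.8, 54.1 and 63.5 CPM with sEVCTRL, 72.3, 89.7 and 69.3 CPM with sEVNORM, and 70.9 and 78.0 CPM with sEVHYP. Its log2 fold change was 0.43 ± 0.15 (SE) for sEVNORM and 0.38 ± 0.17 (SE) for sEVHYP, both against sEVCTRL. The sEVHYP call was lost under most other settings and without sEVCTRL 1, sEVCTRL 2, sEVNORM 1, sEVNORM 3, sEVHYP 1 or sEVHYP 2, and the sEVNORM call without sEVCTRL 1 or sEVNORM 2.

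Adam17, the main protease of Areg, Tgfa and Hbegf precursors, measured 67.5 ± 11.5 CPM (SD, n = 3) with sEVCTRL, 69.4 ± 9.11 CPM (SD, n = 3) with sEVNORM and 57.7 ± 10.4 CPM (SD, n = 2) with sEVHYP, and was not called in any comparison.

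The list of immediate transcriptional targets held 16 genes, of which 15 were tested. Egr1 and Egr2, transcription factors induced within a short time of ERK activation, passed. ERK activity was not measured in these libraries, and its part in the values of the targets was not tested. Egr2 measured 2.39, 2.23 and 2.95 CPM with sEVCTRL, 4.06, 5.76 and 5.01 CPM with sEVNORM, and 7.93 and 4.18 CPM with sEVHYP. All 5 libraries of injected tumor vesicles were above the 3 sEVCTRL libraries, as in 0.812% of all tested genes. Egr2 rose in both, by a log2 fold change of 0.97 ± 0.31 (SE) with sEVNORM and of 1.26 ± 0.34 (SE) with sEVHYP, though the latter was 0.73 and not called without sEVHYP 1. The difference between sEVHYP and sEVNORM was 0.29 on the log2 scale.

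Egr1 measured 15.7, 18.1 and 26.6 CPM with sEVCTRL, 45.5, 30.0 and 43.0 CPM with sEVNORM, and 30.9 and 19.4 CPM with sEVHYP. It rose with sEVNORM against sEVCTRL by a log2 fold change of 0.97 ± 0.27 (SE), the same size as Egr2. Against sEVCTRL the value for sEVHYP was 0.32 ± 0.30 (SE), with overlapping groups. Of the 15 tested targets, 14 had a value above 0 in sEVNORM against sEVCTRL and 11 in sEVHYP against sEVCTRL. Medians were 0.29 and 0.27, whereas those of all tested genes were -0.0008 and -0.015. Of all tested genes, 49.8% and 47.5% had a value above 0. In sEVHYP against sEVNORM 7 of the 15 targets did, with a median of -0.049 beside -0.020 for all tested genes. For ligand shedding, values above 0 with sEVNORM and with sEVHYP, each against sEVCTRL, numbered 7 and 5 of 12. They numbered 17 and 21 of 38 for adaptors and signal transducers, 17 and 18 of 24 for inhibitors, and 3 and 3 of 4 for the further ligands.

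Among the 24 inhibitors of the receptors and of ERK, Dusp6, an ERK phosphatase that ERK itself induces, was the 1 that passed. It measured 30.3, 31.6 and 34.6 CPM with sEVCTRL, 44.2, 46.5 and 35.8 CPM with sEVNORM, and 36.6 and 32.5 CPM with sEVHYP. Dusp6 rose with sEVNORM against sEVCTRL, by 0.39 ± 0.15 on the log2 scale (SE), a call lost without sEVCTRL 1, sEVCTRL 2, sEVNORM 1 or sEVNORM 2. It was also lost with DESeq2 on these groups alone, the replicate block or the luminal covariate.

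Of 39 adaptors and signal transducers, 38 were tested and 2 passed, both subunits of PI3 kinase. Pik3r3, a regulatory subunit, measured 11.4, 14.8 and 11.2 CPM with sEVCTRL, 11.1, 13.3 and 15.6 CPM with sEVNORM, and 17.0 and 18.2 CPM with sEVHYP. Its log2 fold change was 0.50 ± 0.22 in sEVHYP against sEVCTRL (SE), a call lost under DESeq2 and most other settings, and without sEVCTRL 1, sEVCTRL 3, sEVNORM 2, sEVNORM 3, sEVHYP 1 or sEVHYP 2. Pik3cb, a catalytic subunit, measured 61.1, 55.7 and 72.8 CPM with sEVCTRL, 44.1, 63.9 and 54.2 CPM with sEVNORM, and 78.0 and 73.5 CPM with sEVHYP, and rose in sEVHYP against sEVNORM by 0.49 ± 0.19 on the log2 scale (SE). This call was lost without sEVNORM 1 (0.36), sEVNORM 3 (0.49), sEVHYP 1 (0.45) or sEVHYP 2 (0.52). Grb7, an adaptor whose gene neighbours Erbb2, measured 1.64 to 3.501 CPM over the libraries and was not called in any comparison.

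**Figure D5:**
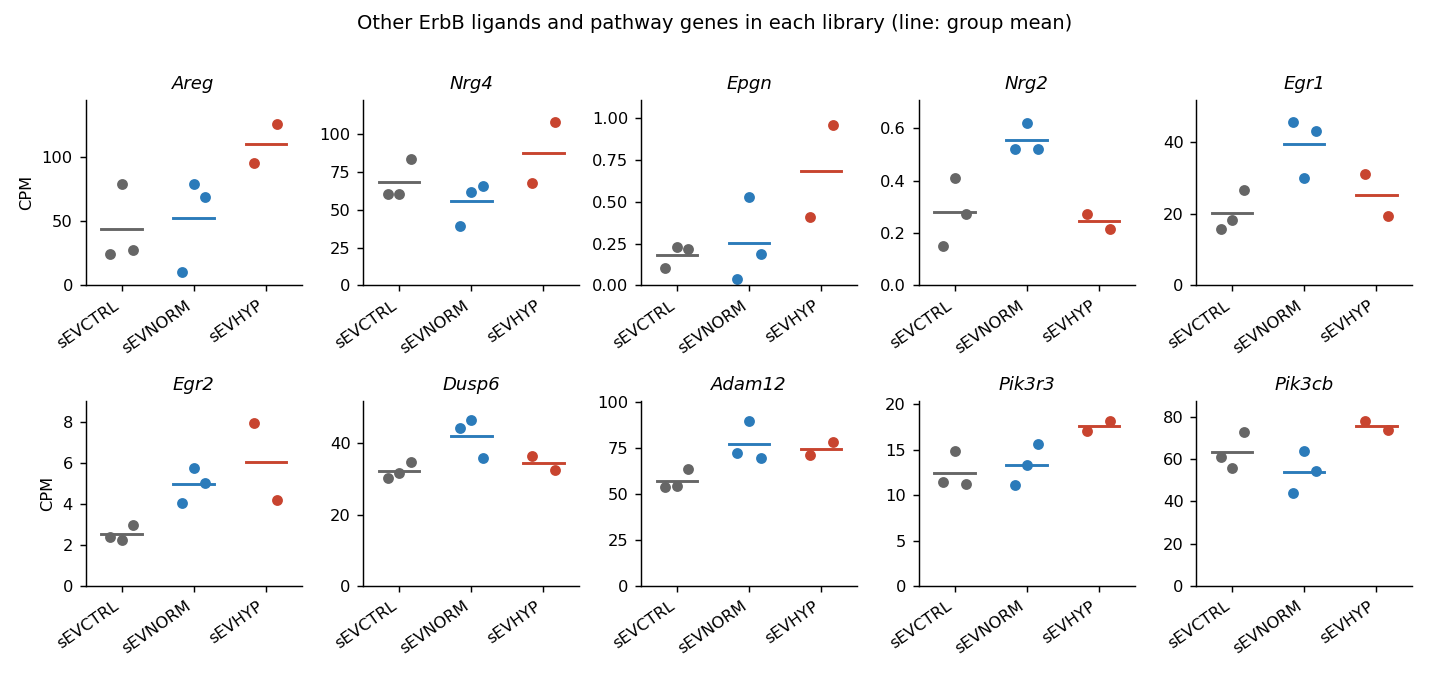
CPM (vertical axis, from 0, scaled for each gene) of 4 further ErbB ligands (Areg, Nrg4, Epgn and Nrg2) and of the 6 other pathway genes that passed an unadjusted P of 0.05 in at least 1 comparison. Points are libraries and lines are group means. Areg is at 95.5 and 126 CPM in the sEVHYP libraries, and all sEVNORM and sEVHYP values of Egr2 lie above those of sEVCTRL.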

How the data were processed

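RNA of whole mammary glands was measured in 8 libraries, grouped by the treatment in the labels. The authors made libraries of polyadenylated RNA with a stranded kit, aligned reads with STAR to GRCm38 (mm10), and estimated reads per gene of Ensembl release 89 with RSEM 1.2.12. The deposited values are whole-number counts, not normalized, for 51789 genes. How the estimates were rounded, and whether counting used strand, is not given in the sources used here. Symbols and positions on GRCm38 were taken from GENCODE M21 for 51596 genes, and 0.0389% of counts had no symbol.

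The test was edgeR 4.0.16 (R 4.3.3), with the quasi-likelihood F-test, two-sided, one model of the 3 groups, TMM factors from 0.975 to 1.02 and filterByExpr at a minimum of 10 counts. It covered 17858 genes with 5 residual and 4.08 prior degrees of freedom (common biological coefficient of variation 0.297). Adjusted P values follow Benjamini and Hochberg over those genes. A prior count of 2 went into log2 CPM, and gene lengths are merged exons. Total counts of 18194996 to 24622569 per library set the precision for low genes. The named genes were the 10 ErbB genes, the 5 further ligands, up to 5 listed genes per comparison with an unadjusted P under 0.05, and the 3 genes nearest to each tested ErbB gene, 1 of which is not reported here. Adam17 and Grb7 were added after their values were seen. The ErbB genes, lists and tests were chosen with earlier results of these data known. Alternatives were DESeq2's size factors, DESeq2 1.42.0 with all libraries or with the compared groups (the study's method), edgeR with the compared groups, other low-count filters, a replicate block, the luminal score as covariate, the longest transcript as length, and every library omitted in turn. No libraries were close enough to be duplicates. The procedure was tested on simulated data.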

Additional observations from a re-analysis of the deposited data

How the results depend on the processing

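Under every alternative that kept all libraries, 0 of the ErbB genes tested were called in each comparison, and 0 passed an adjusted P. Which genes were tested varied with the filter on low counts. Nrg1, with 6 counts in its lowest library, was left out by the filter of 10 counts in every library. Leaving out each library in turn gave 0 to 0 in both sEVHYP comparisons and 0 to 2 in sEVNORM against sEVCTRL (Egfr and Btc, without sEVCTRL 2). Signs were less stable, since the fold changes are small against the spread. With the luminal score as covariate, the log2 fold changes turned to -0.074 for Egfr, -0.057 for Erbb2, -0.17 for Erbb3 and -0.32 for Egf in sEVHYP against sEVCTRL, to 0.043 for Erbb3 in sEVHYP against sEVNORM, and to -0.19 for Erbb2, -0.22 for Erbb3 and -0.021 for Hbegf in sEVNORM against sEVCTRL.

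Same-numbered libraries had correlations of their deviations from the group mean from -0.416 to 0.369. The values were 0.369 and 0.337 for sEVCTRL with sEVHYP, and negative for the other same-numbered pairs. With 2 libraries in sEVHYP, their deviations mirror each other, so these values cannot show whether the replicate numbers pair the libraries. With the replicate block, signs turned for Egf in sEVHYP against sEVCTRL (-0.0034), Erbb3 in sEVHYP against sEVNORM (0.048), and Erbb4 (0.39) and Btc (0.025) in sEVNORM against sEVCTRL, and the pathway genes called in sEVHYP against sEVNORM were 5. Areg was called with the block, at 1.69 against sEVCTRL and 1.58 against sEVNORM.

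Log2 fold changes in sEVHYP against sEVCTRL that turned without a library ranged from -0.23 to 0.44 for Egfr, -0.045 to 0.28 for Erbb3, -2.31 to 0.43 for Erbb4, -0.51 to 0.98 for Egf, -0.47 to 0.39 for Btc, -0.48 to 0.21 for Nrg2 and -0.032 to 0.67 for Nrg4. In sEVHYP against sEVNORM they ranged from -0.19 to 0.23 for Erbb2, -0.27 to 0.14 for Erbb3, -2.19 to 0.30 for Erbb4, -0.14 to 0.85 for Egf, -0.31 to 0.13 for Tgfa and -0.29 to 0.058 for Btc. In sEVNORM against sEVCTRL the ranges were -0.024 to 0.43 for Erbb2, -0.047 to 0.36 for Erbb3, -0.59 to 0.90 for Erbb4, -0.75 to 0.55 for Egf, -0.36 to 0.080 for Tgfa, -0.025 to 0.28 for Hbegf, -0.38 to 0.49 for Btc and -0.15 to 1.02 for Areg.

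All tested genes called numbered 438, 706 and 290 in the 3 comparisons (sEVHYP against sEVCTRL, sEVHYP against sEVNORM, sEVNORM against sEVCTRL). Without a filter on low counts they were 672, 1102 and 533, with the luminal covariate 692, 1234 and 1338, and with DESeq2 on the compared groups 1195 in the second. Leaving out single libraries gave 341 to 1472, 415 to 986 and 222 to 1018, the highest each time without sEVCTRL 2. At an adjusted P under 0.05, edgeR called 0 genes, DESeq2 on all libraries 4, 16 and 2, and DESeq2 on the compared groups 14, 83 and 3. The unfiltered fit called 1 gene in the second, the luminal covariate 1 in the third, and the fits without a library 0 to 1 in the first. Pathway genes called were 1 in sEVHYP against sEVCTRL with DESeq2's size factors or DESeq2 on all libraries, 4 in sEVHYP against sEVNORM with DESeq2 on all libraries and 8 in sEVNORM against sEVCTRL with the luminal covariate, and 1 to 13, 0 to 6 and 2 to 8 without single libraries. Without the 2 farthest libraries, 0 relations passed an adjusted P. The cause was not tested for these. Depth limited the precision for Nrg1, at 6 to 33 counts a library, and Ereg was too low to be tested in the main fit.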
